A study of Mus musculus with 12 samples.

Results

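The genes of osteoclast function and of RANK signalling were examined as a set of 10 in bone endothelial cells (BECs) of mice. The genes were chosen by symbol for their known role in bone resorption, with earlier results of these data known, and all 10 of them were found among the 37620 genes of the count table, each with a count in at least 1 library. RNA-seq had been performed on 12 libraries of BECs from C57/Bl6 mice with no transgene or treatment, 3 libraries each of females at 2 weeks, males at 2 weeks, females at 65 weeks and males at 65 weeks. By the labels the cells were taken freshly from tibia, whereas the study's methods for such cells name femurs as well, and they were selected for endomucin, a surface protein of bone capillaries and sinusoids. The comparisons address whether gene expression in the selected cells, whose purity is not stated, changes with age in each sex and differs between the sexes at each age. The labels do not say whether the 3 libraries of a group came from 3 animals, so the p-values measure the spread between these libraries, and the study's methods state that the samples of best RNA quality were taken from each set.

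Osteoclasts are large multinucleate cells that dissolve bone, and they form by fusion of precursors of the monocyte and macrophage lineage. The cytokine RANKL (Tnfsf11), made by cells of the osteoblast lineage, by hypertrophic chondrocytes and by some lymphocytes, binds its receptor RANK (Tnfrsf11a) on those precursors, and osteoprotegerin (Tnfrsf11b) is a soluble decoy that binds RANKL and keeps it from RANK. RANK acts through TRAF6, NF-kB and AP-1 to raise Nfatc1, the transcription factor that switches on the genes of fusion (Dcstamp, Ocstamp), of matrix digestion and acid secretion (Ctsk, Acp5, Atp6v0d2) and the calcitonin receptor (Calcr).

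In brief, at 65 weeks the ligand, the decoy receptor, both fusion genes and the resorption enzymes Ctsk and Acp5 were lower than at 2 weeks in both sexes, the receptor Tnfrsf11a and Nfatc1 were at or a little above their level at 2 weeks, and the proton pump subunit Atp6v0d2 was higher at 65 weeks in males. In females 8 of the 9 genes that could be tested passed the test between ages (2 higher and 6 lower), beside 59.7% of all 15120 genes tested (30.2% higher and 29.5% lower). In males 7 of 9 passed (1 higher and 6 lower), beside 55.5% of 14959 genes (27% higher and 28.5% lower). The test was edgeR's quasi-likelihood F-test with Benjamini-Hochberg adjustment over all genes tested, and a gene passed at an adjusted p under 0.05. Since more than every other gene passed, the number of members that passed is no result about the set, and the sizes and directions of each gene are given instead. By CPM of the libraries, 7 members lay wholly lower and 2 wholly higher at 65 weeks in females, beside 41.6% and 27.6% of all genes tested. In males 7 were lower and 1 higher, beside 39.4% and 26%. The lower members include Calcr, which was too low to be tested. With scaling by library totals, as in CPM, the median log2 fold change of all genes was -0.13 in females and -0.11 in males. No member passed between the sexes at either age.

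**Figure D1:**
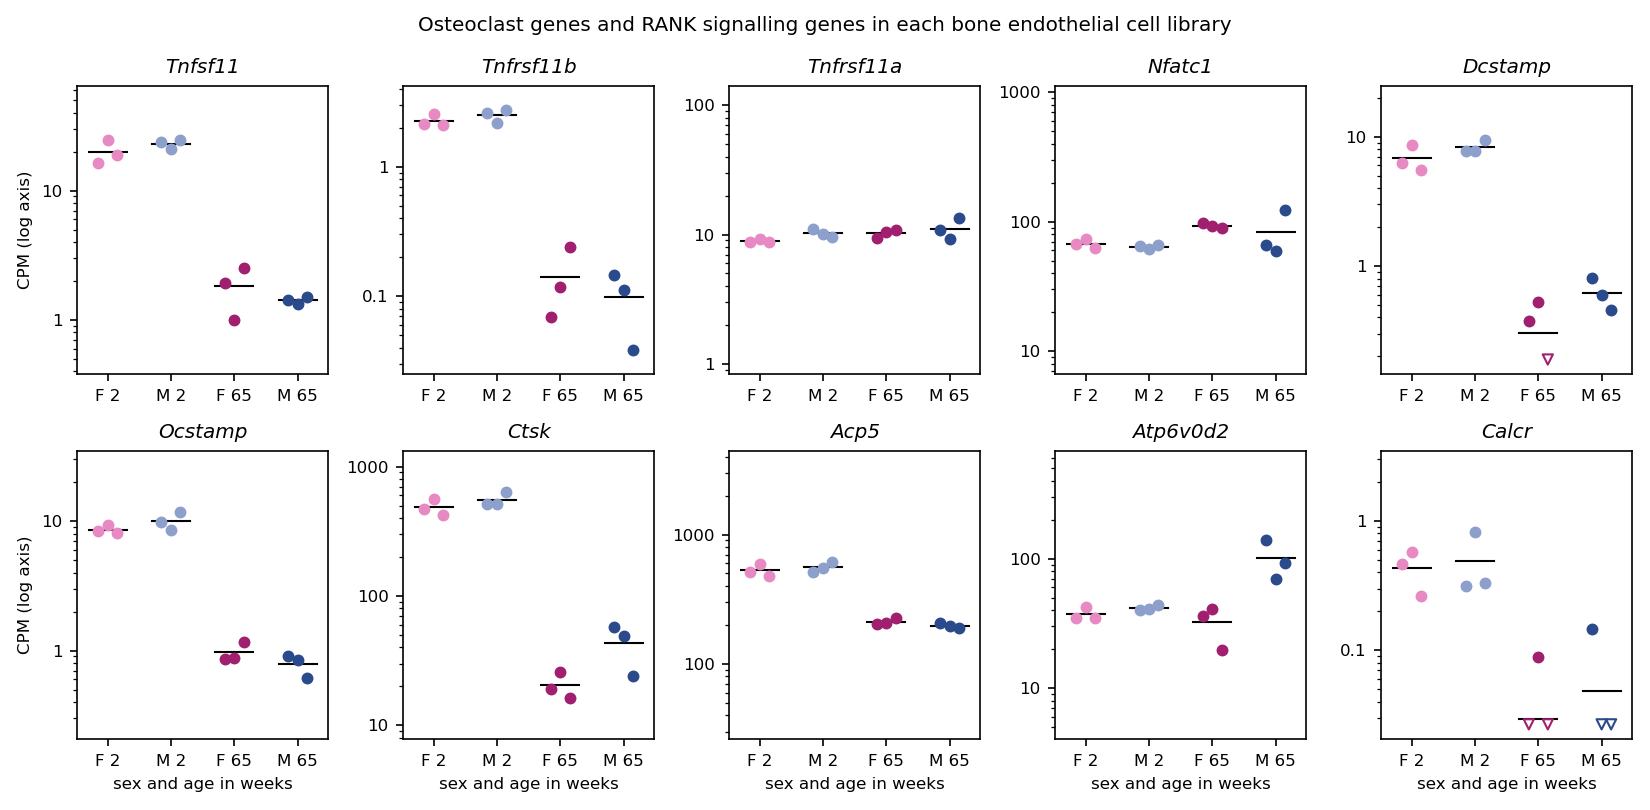
CPM (log axis), a gene's counts scaled to a library total of 1000000 counts, of the 10 genes in each of the 12 libraries, by sex (F, M) and age in weeks. Points are libraries, bars are group means of 3 libraries, open triangles at the bottom mark libraries with 0 counts, and each panel spans the same fold range. The panels of 7 genes (Tnfsf11, Tnfrsf11b, Dcstamp, Ocstamp, Ctsk, Acp5 and Calcr) show both groups at 65 weeks below both groups at 2 weeks.

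The composition of the libraries bears on every comparison between ages. Library totals were 35012947 to 44569600 counts at 2 weeks and 26044743 to 34088694 counts at 65 weeks, with the lowest totals in males at 65 weeks. The 8 endothelial markers, among them Pecam1, Cdh5 and Emcn, summed to 1510 to 2780 CPM per library at 2 weeks and 103 to 197 CPM at 65 weeks, and all 8 fell in both sexes. Emcn itself, the gene of the selection marker, was at 115 to 227 CPM at 2 weeks and 2.80 to 6.98 CPM at 65 weeks. Osteoblast and stromal markers exceeded the endothelial sum in every library, at 10900 to 15700 CPM at 2 weeks and 1020 to 1700 CPM at 65 weeks, with 11 of 11 lower at 65 weeks in each sex. Chondrocyte markers went from 306 to 559 CPM down to 4.96 to 10.2 CPM (7 of 7 lower in each sex; Col10a1 in females and Col9a1 in males had 0 counts at 65 weeks). Monocyte and macrophage markers went from 4040 to 5020 CPM up to 8670 to 11700 CPM, with 11 of 11 higher in females and 9 of 11 in males. Neutrophil markers went from 3840 to 5970 CPM up to 11700 to 25400 CPM (7 of 7 higher in each sex), B cell markers from 219 to 304 CPM to 322 to 1210 CPM (5 of 6 higher in each sex), plasma cell markers from 104 to 155 CPM to 784 to 1430 CPM (4 of 5 higher in females, 3 of 5 in males, 1 lower in each) and T cell markers from 41.7 to 72.9 CPM to 95.3 to 190 CPM (5 of 6 higher in each sex). In these bulk samples fewer cells of a type and less RNA per cell cannot be told apart, and the part of this composition in the differences below was not tested.

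The sequences just upstream of the starts of 3 genes that fell between ages are shown, the protease gene Ctsk, the phosphatase gene Acp5 and the ligand gene Tnfsf11. Transcription factors of the RANK pathway are known to act on osteoclast genes such as Ctsk and Acp5. Tnfsf11 encodes the ligand upstream of that pathway and is shown beside them. RefSeq windows were matched for 5 of the 10 members, and Atp6v0d2, Dcstamp, Ocstamp, Tnfrsf11b and Nfatc1 are named only. Each run is the 250 bases before an annotated start, 5' to 3' on the gene's strand, and capitals mark matches on either strand to GGAAA (NFAT core), TGANTCA (AP-1), CACGTG and CATGTG (E-boxes read by MITF) or GAGGAA (PU.1 core).
Ctsk, GRCm38.p6, chr3:95498960-95499209, plus strand: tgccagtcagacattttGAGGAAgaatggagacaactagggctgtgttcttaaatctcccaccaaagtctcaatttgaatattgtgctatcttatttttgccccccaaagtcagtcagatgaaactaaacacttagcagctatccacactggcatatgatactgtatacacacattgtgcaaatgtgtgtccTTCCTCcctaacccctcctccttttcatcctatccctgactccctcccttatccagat
Acp5, GRCm38.p6, chr9:22130599-22130848, minus strand: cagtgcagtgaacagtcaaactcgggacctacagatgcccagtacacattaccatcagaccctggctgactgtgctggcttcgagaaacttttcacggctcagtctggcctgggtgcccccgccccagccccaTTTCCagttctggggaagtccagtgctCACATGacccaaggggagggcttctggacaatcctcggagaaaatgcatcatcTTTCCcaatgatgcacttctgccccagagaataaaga
Acp5, GRCm38.p6, chr9:22131866-22132115, minus strand: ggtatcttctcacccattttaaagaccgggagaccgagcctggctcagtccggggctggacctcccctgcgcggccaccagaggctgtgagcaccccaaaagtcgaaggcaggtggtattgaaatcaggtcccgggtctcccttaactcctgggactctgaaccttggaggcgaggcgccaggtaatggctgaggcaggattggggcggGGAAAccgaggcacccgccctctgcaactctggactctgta
Acp5, GRCm38.p6, chr9:22135747-22135996, minus strand: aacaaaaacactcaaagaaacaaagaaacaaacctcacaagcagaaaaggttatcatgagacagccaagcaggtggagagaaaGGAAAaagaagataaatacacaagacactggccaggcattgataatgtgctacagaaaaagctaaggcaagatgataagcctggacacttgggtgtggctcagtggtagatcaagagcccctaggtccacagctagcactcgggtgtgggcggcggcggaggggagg
Tnfsf11, GRCm38.p6, chr14:78308044-78308293, minus strand: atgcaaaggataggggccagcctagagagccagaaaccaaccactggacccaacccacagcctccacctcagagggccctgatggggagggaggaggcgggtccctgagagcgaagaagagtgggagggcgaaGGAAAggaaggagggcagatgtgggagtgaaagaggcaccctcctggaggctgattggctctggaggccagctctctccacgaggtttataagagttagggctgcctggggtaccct
The Ctsk window held the PU.1 core at -233 and -58 from the start and none of the other motifs. The window of Acp5 at the lowest coordinates held the NFAT core at -117 and -37 and CATGTG, read as CACATG, at -90, and its other windows held the NFAT core alone, at -41 and at -167. The Tnfsf11 window held the NFAT core at -117, the window of Tnfrsf11a held none of the motifs, and of the windows of Calcr 1 held the NFAT core, at -65. Of 32851 promoter windows of the same length, 55.6% held GGAAA, 23.3% GAGGAA, 12.3% CATGTG, 6.75% TGANTCA and 6.02% CACGTG. A match describes letters in this window, and the builds of this table and of the gene positions below differ.

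Tnfsf11, the gene of RANKL (positions here and below from GENCODE M39 on GRCm39, chromosome 14, 78514885 to 78545490, minus strand), was at 16.4, 24.5 and 18.7 CPM in the 3 libraries of females at 2 weeks and 23.6, 20.9 and 24.5 CPM in those of males at 2 weeks. At 65 weeks it was at 1.93, 1.00 and 2.52 CPM in females and 1.43, 1.33 and 1.497 CPM in males. Every library at 65 weeks was below every library at 2 weeks. The fitted change was a log2 fold change of -3.32 ± 0.30 (SE) in females (10.01-fold lower, adjusted p = 4.8e-05) and -3.90 ± 0.15 in males (14.9-fold lower, adjusted p = 1.47e-06).

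Tnfrsf11b, the gene of the decoy osteoprotegerin (GRCm39, chromosome 15, 54114015 to 54142075, minus strand), was low throughout. It was at 2.12, 2.54 and 2.09 CPM in females and 2.58, 2.18 and 2.72 CPM in males at 2 weeks. At 65 weeks 2, 4 and 7 counts were found in females and 4, 3 and 1 in males, which is 0.0688 to 0.239 CPM and 0.0384 to 0.146 CPM. All libraries at 65 weeks were again below all at 2 weeks. The fitted log2 fold change was -3.83 ± 0.43 in females (adjusted p = 0.000143) and -4.48 ± 0.44 in males (adjusted p = 0.000105). From the summed counts alone the level at 2 weeks was 16-fold that at 65 weeks in females (exact 95% interval 9.16 to 30.4, counting error only) and 25.0-fold in males (12.5 to 58.4).

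The ligand and the decoy fell together. The summed counts of Tnfsf11 were 8.80 times those of Tnfrsf11b in females at 2 weeks (exact 95% interval 7.71 to 10.1) and 9.22 times in males at 2 weeks (8.19 to 10.4). At 65 weeks the ratio was 12.6 in females (7.18 to 24.2) and 14.2 in males (6.99 to 33.8). With 13 and 8 counts of Tnfrsf11b at 65 weeks a difference in this ratio between ages was not detectable at this depth, since the intervals overlap.

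Tnfrsf11a, the gene of the receptor RANK (GRCm39, chromosome 1, 105708358 to 105777170, plus strand), did not follow its ligand. It was at 8.80, 9.20 and 8.78 CPM in females and 10.97, 10.17 and 9.60 CPM in males at 2 weeks, and at 9.43, 10.38 and 10.75 CPM in females and 10.76, 9.30 and 13.32 CPM in males at 65 weeks. The groups of females did not overlap and those of males did. In females the log2 fold change was 0.33 ± 0.12 (95% interval 0.05 to 0.60, adjusted p = 0.0452), a call that was lost in most other fits, among them DESeq2 (adjusted p = 0.0951), scaling by library totals (0.213) and 5 of the 6 fits without 1 library (0.0904 to 0.234). In males it was 0.23 ± 0.16 (95% interval -0.14 to 0.60, adjusted p = 0.249). Counts of the ligand were 1.86 to 2.66 times those of the receptor in the libraries at 2 weeks and 0.0960 to 0.235 times at 65 weeks.

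Nfatc1, the master transcription factor of osteoclast formation (GRCm39, chromosome 18, 80649266 to 80756295, minus strand), was at 67.2, 73.0 and 63.0 CPM in females and 64.6, 61.9 and 65.8 CPM in males at 2 weeks. At 65 weeks it was at 97.0, 92.6 and 89.1 CPM in females and 66.3, 59.8 and 124.0 CPM in males. Females at 65 weeks lay above all females at 2 weeks, with a log2 fold change of 0.59 ± 0.08 (1.51-fold higher, adjusted p = 0.000295). Males overlapped, at 0.48 ± 0.23 (95% interval -0.07 to 1.03, adjusted p = 0.117). With 1 library left out the change in males ranged from 0.10 to 0.66. Of those fits only the one without replicate 2 at 65 weeks passed (0.66, adjusted p = 0.0341). Replicates 1 and 2 of males at 65 weeks, at 66.3 and 59.8 CPM, were near the males at 2 weeks. Replicate 3 stood above the other males at 65 weeks, and that library also had the highest sum of the 6 B cell markers in its group, 1211 CPM against 416 and 322 CPM in replicates 1 and 2, and all 3 females at 65 weeks had 695 to 1030 CPM. Nfatc1 is also expressed in lymphocytes, and the part of B cells in its level was not tested.

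The fusion genes were at 5.54 to 11.78 CPM at 2 weeks and at 0 to 1.16 CPM at 65 weeks. Dcstamp (GRCm39, chromosome 15, 39609214 to 39624334, plus strand), a membrane protein required for fusion of precursors, was at 6.29, 8.68 and 5.54 CPM in females and 7.81, 7.80 and 9.47 CPM in males at 2 weeks. The values at 65 weeks were 0.379, 0.528 and 0 CPM in females and 0.805, 0.593 and 0.461 CPM in males. The groups did not overlap between ages, and the log2 fold change was -4.31 ± 0.62 in females (adjusted p = 0.000537) and -3.62 ± 0.27 in males (adjusted p = 2.59e-05). Replicate 3 of females at 65 weeks held no count of Dcstamp, and without it the change in females was -3.75. The summed counts gave 21.6-fold (exact 95% interval 14.9 to 32.5) and 13.3-fold (10 to 18.1) higher levels at 2 weeks in females and males.

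Ocstamp (GRCm39, chromosome 2, 165235680 to 165242336, minus strand), which acts beside Dcstamp in fusion, was at 8.39, 9.31 and 8.10 CPM in females and 9.80, 8.57 and 11.78 CPM in males at 2 weeks. It was at 0.861, 0.880 and 1.16 CPM in females and 0.915, 0.852 and 0.614 CPM in males at 65 weeks. Again no library at 65 weeks reached a library at 2 weeks. The log2 fold change was -3.01 ± 0.20 in females (8.08-fold lower, adjusted p = 1.07e-05) and -3.53 ± 0.25 in males (11.6-fold lower, adjusted p = 2.05e-05).

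Ctsk and Acp5 had the highest levels of the 10 genes at 2 weeks, also per exon length. Ctsk (GRCm39, chromosome 3, 95406178 to 95416732, plus strand), the collagen-digesting protease cathepsin K, was at 470, 564 and 421 CPM in females and 512, 509 and 638 CPM in males at 2 weeks. At 65 weeks it was at 19.2, 25.8 and 16.2 CPM in females and 57.7, 48.9 and 24.1 CPM in males. Its log2 fold change was -4.43 ± 0.20 in females (21.6-fold lower, adjusted p = 2.36e-06) and -3.53 ± 0.34 in males (11.6-fold lower, adjusted p = 8.81e-05). Fibroblasts and osteoblast-lineage cells can also express Ctsk, so its counts need not come from osteoclasts.

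Acp5 (GRCm39, chromosome 9, 22038023 to 22049355, minus strand), the tartrate-resistant acid phosphatase stained as TRAP, was at 516, 588 and 482 CPM in females and 516, 549 and 613 CPM in males at 2 weeks. By 65 weeks it stood at 205, 207 and 226 CPM in females and 205, 196 and 190 CPM in males. Ages did not overlap, but the change was smaller than that of Ctsk, at -1.18 ± 0.09 in females (2.26-fold lower, adjusted p = 1.7e-05) and -1.39 ± 0.11 in males (2.61-fold lower, adjusted p = 3.62e-05). Macrophages express Acp5 as well.

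The unequal fall of the 2 enzymes shows in their ratio, which does not depend on scaling between libraries. Ctsk counts were 0.874 to 0.959 times those of Acp5 in females and 0.927 to 1.04 times in males at 2 weeks. They were 0.0719 to 0.125 times in females and 0.127 to 0.281 times in males at 65 weeks. The ages lay far apart, and at 65 weeks every male library was above every female library, by a small margin in replicate 3 of the males (0.127 against a highest female value of 0.125). A difference of this ratio between the sexes was not tested, and neither gene passed between the sexes by edgeR. Of single genes tested, 9.32% lay wholly higher in males at 65 weeks and 6.16% wholly lower.

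Atp6v0d2 (GRCm39, chromosome 4, 19876838 to 19922614, minus strand), a subunit of the proton pump of osteoclasts that is also made by some macrophages, differed from the other effectors. It was at 35.15, 42.2 and 34.7 CPM in females and 40.5, 40.6 and 43.9 CPM in males at 2 weeks. In the older mice it was at 36.2, 40.7 and 19.8 CPM in females and 139.5, 70.3 and 92.1 CPM in males. Females overlapped between ages, with a log2 fold change of -0.07 ± 0.24 (95% interval -0.62 to 0.47, adjusted p = 0.806). In males all libraries at 65 weeks lay above all at 2 weeks, at 1.396 ± 0.24 (2.63-fold higher, adjusted p = 0.00194). The interaction of sex and age, which tests whether the sexes changed unequally, was 1.47 ± 0.38 for Atp6v0d2 and did not pass (unadjusted p = 0.00218, adjusted p = 0.164), so an unequal change is not shown by this test. Its counts went from 0.0688 to 0.0825 times those of Ctsk at 2 weeks to 1.22 to 3.82 times at 65 weeks over both sexes.

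Calcr (GRCm39, chromosome 6, 3685680 to 3764714, minus strand), the calcitonin receptor of mature osteoclasts, was near the limit of detection. It held 10 to 34 counts per library at 2 weeks, which is 0.261 to 0.571 CPM in females and 0.314 to 0.814 CPM in males. At 65 weeks it held 0, 3 and 0 counts in females and 4, 0 and 0 in males. It did not pass the filter on low counts in either comparison between ages and was not tested there. From the summed counts it was 13.2-fold higher at 2 weeks in females (47 against 3 counts, exact 95% interval 4.24 to 66.1) and 9.83-fold higher in males (60 against 4 counts, 3.64 to 37.2). The microRNA genes Mir489 and Mir653 lie within Calcr on the same strand.

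**Figure D2:**
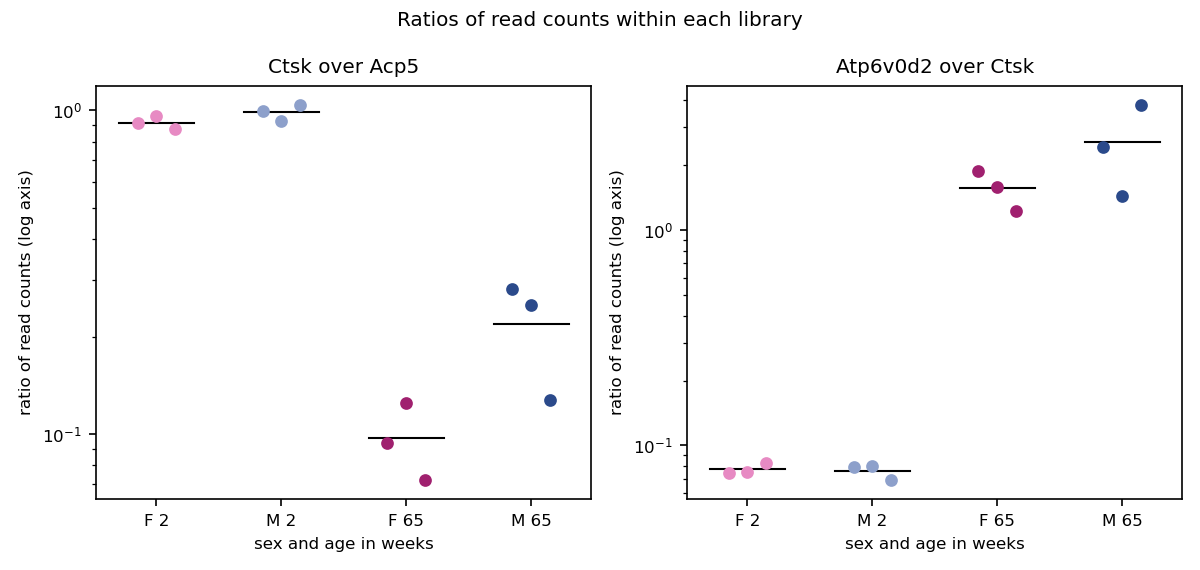
Ratios of read counts within each library (log axes), Ctsk over Acp5 on the left and Atp6v0d2 over Ctsk on the right, by sex and age in weeks. Points are libraries and bars are group means of 3 libraries. Ctsk over Acp5 is at 0.874 to 1.04 at 2 weeks and at 0.0719 to 0.281 at 65 weeks, while Atp6v0d2 over Ctsk is at most 0.0825 at 2 weeks and at least 1.22 at 65 weeks.

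Levels per exon length order the members differently at the 2 ages. The length used joins the annotated exons of all transcripts of a gene, so a single transcript can be shorter. In CPM per kilobase of exon (group mean), females at 2 weeks had Ctsk first at 164.8 and Acp5 next at 120.3. In CPM alone Acp5 had the higher mean (528.5 against 485.1 CPM). They were followed by Atp6v0d2 at 13.7, Nfatc1 at 8.88 and Tnfsf11 at 8.85, the last pair being closer than the spread of Tnfsf11 between libraries. Ocstamp (2.34), Dcstamp (2.31), Tnfrsf11a (1.18), Tnfrsf11b (0.747) and Calcr (0.110) were lower. In females at 65 weeks Acp5 led at 48.4, ahead of Nfatc1 at 12.2 and Atp6v0d2 at 11.8, whose order does not exceed the spread, then Ctsk at 6.93, Tnfrsf11a at 1.35 and Tnfsf11 at 0.810. Males at 65 weeks had Acp5 first at 44.8, then Atp6v0d2 at 36.9, Ctsk at 14.8, Nfatc1 at 10.9, Tnfrsf11a at 1.47 and Tnfsf11 at 0.633. The order of Acp5 and Atp6v0d2 and that of Ctsk and Nfatc1 in these males do not exceed the spread between libraries.

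Between the sexes no member passed at 2 weeks by edgeR (0 of 10 tested, and 0 at an unadjusted p under 0.05), beside 0.0332% of 15081 genes (0.0265% higher and 0.00663% lower in males), and DESeq2 called 0 as well. Apart from Calcr (95% interval -0.90 to 1.25), the intervals of the log2 difference of males over females at 2 weeks lay between -0.25 (Nfatc1) and 0.66 (Dcstamp). Only Tnfrsf11a had groups that did not overlap at 2 weeks, higher in males by a log2 difference of 0.18 ± 0.09 (adjusted p = 0.321), where 9.97% of all genes tested did so in that direction and 11.8% in the other.

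At 65 weeks edgeR called 0 of the 8 members tested between the sexes, beside 0.042% of 14287 genes, with 2 at an unadjusted p under 0.05 (1479 of all genes), and DESeq2 called these 2, beside 357 of all genes. They were Atp6v0d2, higher in males by a log2 difference of 1.64 ± 0.33 (unadjusted p = 0.00094, adjusted p = 0.163 by edgeR and 6.17e-06 by DESeq2), and Ctsk, higher by 1.10 ± 0.33 (unadjusted p = 0.0102, adjusted p = 0.289 and 0.0173). For Atp6v0d2 the 3 males lay above the 3 females, which 9.32% of all genes tested did and 6.16% did the other way round, whereas Ctsk of male replicate 3 (24.1 CPM) fell among the females. Without male replicate 3, the library with the high B cell markers, edgeR called 3 members, Ctsk (1.403, adjusted p = 0.0102), Atp6v0d2 (1.73, adjusted p = 0.0299) and Nfatc1, lower in males by 0.54 on the log2 scale (adjusted p = 0.0228). Without it the whole comparison called 830 genes against 6 with it. For the other members the intervals were wide, as for Dcstamp (-1.12 to 3.13) and Tnfsf11 (-1.32 to 0.59), except for Acp5 (-0.37 to 0.13) and Tnfrsf11a (-0.28 to 0.49). The interaction of sex and age called 0 of 10 members by edgeR, beside 0.00635% of 15747 genes, with 2 at an unadjusted p under 0.05 (Atp6v0d2 above and Ctsk at 0.0421, adjusted p = 0.399), and 1 by DESeq2 (Atp6v0d2, adjusted p = 0.0129).

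**Figure D3:**
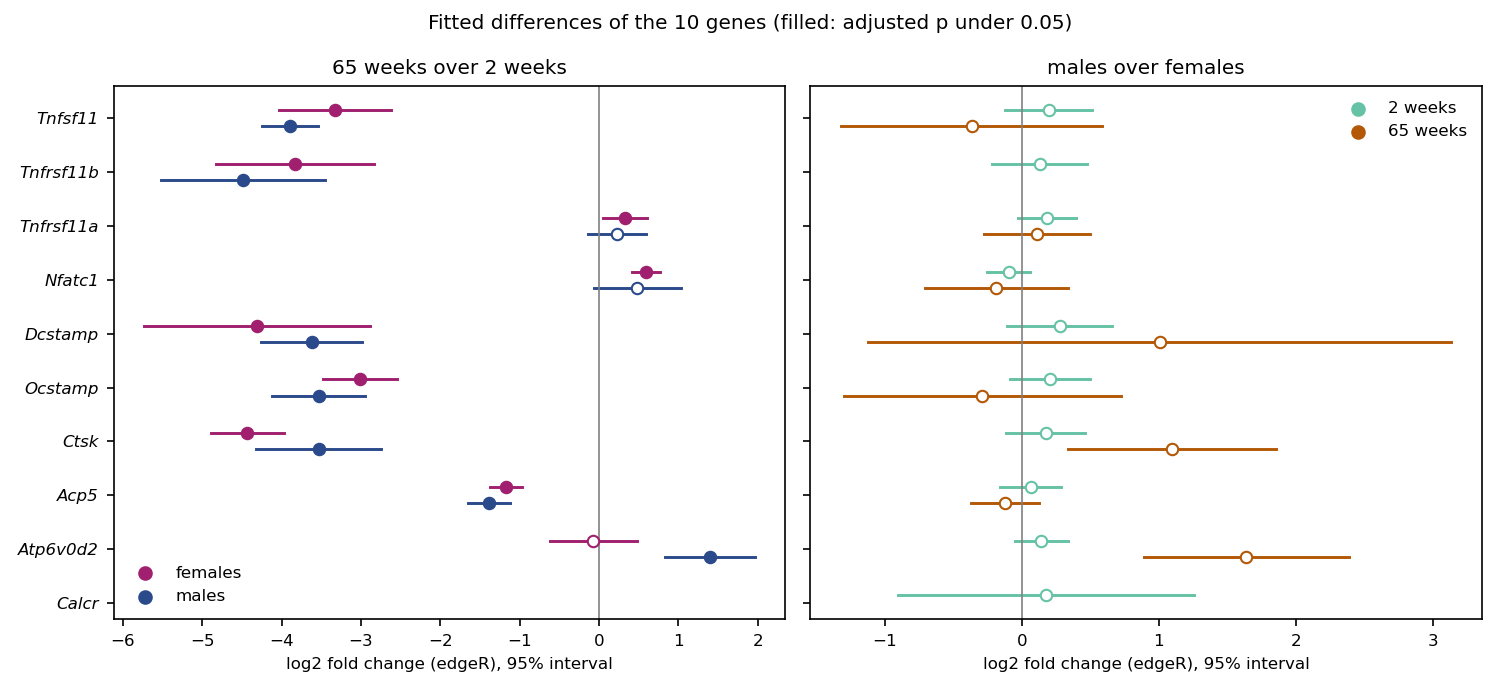
Fitted log2 fold changes (points) with 95% intervals (lines) of the 10 genes, on the left 65 weeks over 2 weeks in females and males and on the right males over females at 2 and 65 weeks. Filled points passed at an adjusted p under 0.05 and genes not tested have no point. On the left 6 genes are filled below 0 in both sexes, and above 0 Atp6v0d2 is filled in males and Nfatc1 and Tnfrsf11a in females. On the right every point is open.

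Genes around the members were followed in 4 lists, of which the part upstream of NFATc1, RANK adaptors and co-stimulation, moved mostly up. Of its 30 genes 20 were higher, 6 lower and 4 not called at 65 weeks in females, and 16 were higher, 6 lower and 8 not called in males, with a median log2 fold change of 0.49 and 0.38 (0.01 for all genes in both sexes). The shares over all genes tested were 30.2% higher and 29.5% lower in females, and 27% and 28.5% in males. Trem2 and Tyrobp, a receptor of myeloid cells and its signalling adaptor, rose by 2.26 ± 0.12 and 0.56 ± 0.13 in females and 2.94 ± 0.15 and 0.75 ± 0.13 in males. The kinase Syk rose by 1.59 ± 0.08 and 1.53 ± 0.29 and Csf1r, the receptor for M-CSF, by 1.74 ± 0.16 and 0.87 ± 0.13 in females and males. Genes of the list that fell were Oscar, another co-stimulatory receptor (-5.18 ± 0.40 and -3.86 ± 0.35), Lgr4, a receptor that can also bind RANKL (-2.53 ± 0.24 and -2.63 ± 0.18), and Csf1, which encodes M-CSF (-2.20 ± 0.19 and -1.56 ± 0.11). Traf6, the adaptor of RANK, was at 0.04 ± 0.16 (adjusted p = 0.85) and -0.09 ± 0.11 (adjusted p = 0.542). Syk and Tyrobp are expressed in other blood cells as well, and Csf1r is itself 1 of the 11 monocyte and macrophage markers. The sum of those markers was 8670 to 11700 CPM at 65 weeks against 4040 to 5020 CPM at 2 weeks. The part of monocytes and macrophages in this list was not tested.

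Of the 19 genes of osteoclast transcription that were tested, 10 were higher in females and 9 in males (median 0.50 and 0.49). The others were lower or not called. Over all genes tested 30.2% were higher in females and 27% in males. Spi1, which encodes PU.1, rose by 1.23 ± 0.11 and 1.42 ± 0.09 in females and males, and Mitf rose by 1.21 ± 0.13 and 0.92 ± 0.17. The repressor gene Bcl6 rose by 2.43 ± 0.14 and 2.20 ± 0.13. Irf8, an inhibitor of osteoclast formation, rose in females (0.72 ± 0.09) and was at 0.63 ± 0.28 in males (adjusted p = 0.0888), and Prdm1 rose in females (1.31 ± 0.15) and was at 0.47 ± 0.21 in males (adjusted p = 0.0921). Fos, a part of AP-1, was at 0.59 ± 0.23 in females (adjusted p = 0.0592) and rose by 0.78 ± 0.19 in males. Prdm1 is also a plasma cell gene, and plasma cell markers summed to 784 to 1430 CPM at 65 weeks against 104 to 155 CPM at 2 weeks, a part that was not tested.

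Of the 29 genes of the resorption machinery 7 were higher, 7 lower and 15 not called in females, and 8 were higher, 7 lower and 14 not called in males (median 0.11 and 0.13). Of all genes tested 30.2% were higher and 29.5% lower in females, and 27% and 28.5% in males. The counts of this list are near those shares and are no result about the list. Among its genes not called in either sex were 3 genes of acid secretion. Tcirg1, the a3 subunit of the proton pump, was at 0.08 ± 0.11 and 0.14 ± 0.09, the chloride transporter Clcn7 at -0.01 ± 0.08 and 0.13 ± 0.11, and its partner Ostm1 at 0.07 ± 0.11 and -0.08 ± 0.11 (adjusted p from 0.207 to 0.914). Those 3 are found in lysosomes of most cells. Of the other subunits of the proton pump in the list, Atp6v0b, Atp6v0c, Atp6v0d1, Atp6v0e, Atp6v1a and Atp6v1h were not called in either sex. The rest, named here after their values were seen, were called higher by small amounts in 1 sex or both. In females these were Atp6v1d, Atp6v1e1, Atp6v1f and Atp6v1g1 (0.23 to 0.37) and in males Atp6v0a1, Atp6v1b2, Atp6v1c1, Atp6v1d, Atp6v1e1 and Atp6v1g1 (0.27 to 0.50). With scaling by library totals the values stayed above 0 but of these only Atp6v1e1 in males was still called (adjusted p = 0.0178), and without replicate 1 of females at 2 weeks none of the 4 in females was called (adjusted p from 0.0635 to 0.183). Genes that fell were Itgb3, the integrin beta 3 chain (-2.41 ± 0.17 and -3.02 ± 0.35), Src (-1.19 ± 0.16 and -1.25 ± 0.16), the membrane protease gene Mmp14 (-2.76 ± 0.21 and -2.97 ± 0.17) and Slc9b2, a sodium-proton exchanger (-3.64 ± 0.60 and -2.97 ± 0.26). Mmp9 fell in females (-0.98 ± 0.13) and was at -0.39 ± 0.19 in males (adjusted p = 0.124). Car2, carbonic anhydrase, rose by 0.74 ± 0.16 and 1.01 ± 0.24, and Plekhm1, a lysosome trafficking gene, by 0.87 ± 0.07 and 0.90 ± 0.12.

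In the list of fusion and of coupling to bone formation 7 of 19 genes were higher, 11 lower and 1 not called in females, and 5 were higher, 11 lower and 3 not called in males (median -0.53 and -0.77). Among all genes tested 30.2% were higher and 29.5% lower in females, and 27% and 28.5% in males. Adam12, a metalloprotease linked to cell fusion, fell (-5.27 ± 0.37 and -5.73 ± 0.13), whereas its relative Adam8 rose by 1.63 ± 0.20 and 2.60 ± 0.15, and Sema4d, a semaphorin of osteoclasts and lymphocytes, rose by 1.25 ± 0.10 and 1.35 ± 0.12. Cthrc1, a secreted coupling factor, had 1038 counts over the females at 2 weeks and 0 at 65 weeks, at least 291-fold lower against 3 counts over the group, and the median of the list was -0.53 with Cthrc1 at that bound as well. In males it had 1393 and 4 counts, a 228-fold ratio (exact 95% interval 88.9 to 838). Several genes of this list are expressed by stromal and endothelial cells, whose marker sums fell between ages as given above.

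**Figure D4:**
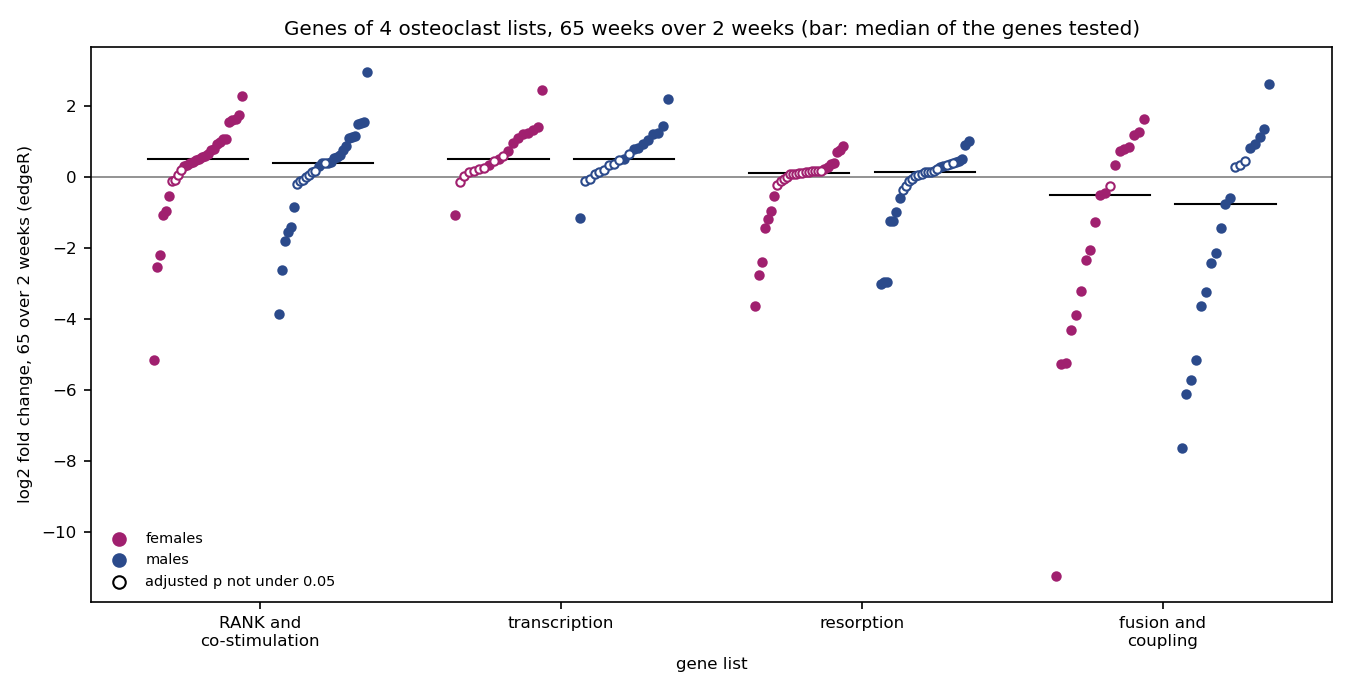
Log2 fold changes of 65 over 2 weeks (edgeR) for the genes of 4 lists around the 10 members, in females and males. Each point is a gene, open points did not pass at an adjusted p under 0.05, and bars are medians over the genes tested. The lists of RANK and co-stimulation and of transcription have medians from 0.38 to 0.50, resorption is near 0 and fusion and coupling is at -0.53 and -0.77, with Cthrc1, at 0 counts in females at 65 weeks, as the lowest point, whose fitted value is no bound.

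No gene of these lists passed between the sexes by edgeR. At 2 weeks 7, 3, 4 and 8 genes of the lists of co-stimulation, transcription, resorption and fusion had an unadjusted p under 0.05 as did 2683 of all 15081 genes, and DESeq2 called 5 in all, beside 412 of all genes. At 65 weeks the numbers were 5, 3, 7 and 2, beside 1479 of all 14287 genes, with 5 called by DESeq2, beside 357 of all genes.

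The genes most like 4 of the members were sought among 11910 protein-coding genes by Pearson's r of log2(CPM + 0.5) over the 12 libraries, as a description, since all points share the split by age. Ctsk was most like Ccdc3 (r = 0.999), Ephx2 (0.997) and Pcsk6 (0.995). Tnfsf11 was most like Stk32c (0.997), Exoc3l2 (0.995) and Chn1 (0.995), and Tnfrsf11b was most like Ocstamp (0.999), Alpl (0.999), which encodes the alkaline phosphatase of osteoblasts, and Kcnq1 (0.998). Tnfrsf11a, with little change between ages, was most like Rab14 (0.946), Wdr41 (0.930) and Asb2 (0.925).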

How the data were processed

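RNA-seq counts of 12 libraries of endomucin-selected BECs were analysed, grouped by the sex and age in the labels. The deposited values are raw counts per Ensembl gene made by the authors, with no normalization. The submitters' processing notes name TopHat2, HTSeq and mm9, whereas the study's methods name STAR, featureCounts and GRCm39, so the pipeline behind the table is uncertain, and whether strand was used in counting is not given in the sources used here. Likewise the labels give freshly sorted tibial cells and polyA RNA, while the methods describe bead isolation from tibiae and femurs, a culture step for some assays and a total RNA kit. 0 columns were left unmapped.

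Symbols, positions and exon lengths were taken from GENCODE M39 (GRCm39), which matched 31052 of 37620 gene IDs and 99.3% of counts. CPM were computed per library total. Age was tested within each sex and sex within each age, each fit on its own 6 libraries, and the interaction on all 12, with edgeR 4.0.16 in R 4.3.3. Genes were kept by filterByExpr at a minimum count of 10, libraries were scaled by TMM, and p-values of the quasi-likelihood test were adjusted by Benjamini-Hochberg at a threshold of 0.05. Fitted folds are on the TMM scale and so differ a little from ratios of CPM. Intervals of summed counts are exact binomial at 95% and cover counting error only. The fits were tested on simulated data with known fold changes, in which 50 genes were changed at each fold size and all others had no difference between groups. False calls were 3.4% to 12.1% of all calls, highest for the sexes at 65 weeks (12.1%) and for age in males (11%). Of 50 genes changed 1.5-fold, 2 to 22 were recovered in a comparison, and of 50 changed 4-fold, 33 to 47. At 1.5-fold 4 were recovered between the sexes at 65 weeks and 2 between ages in males. In the libraries themselves 59.7% of genes in females and 55.5% in males passed between ages, a far larger share than was changed in the simulation. The simulated rates therefore need not hold for the calls between ages. Alternatives were DESeq2 1.42.0, other scalings, no filter, a stricter threshold of 0.01, a replicate block, all 12 libraries in 1 model, and leaving out each library.

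The 10 members and all lists were chosen with earlier results of these data known. Named were all members, 20 pathway genes chosen by role (1 of them is not reported here), and per list the 2 largest rises and falls that passed alike in both sexes at an average log2 CPM of at least 1. Genes of marker lists overlap the pathway lists in Csf1r and Prdm1. The labels give no batch.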

Additional observations from a re-analysis of the deposited data

How the results depend on the processing

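Between ages the number of members called stayed within 1.5 times under every alternative run (7 to 9 in females and 7 to 8 in males), and so did the counts of the 4 pathway lists. Of the single log2 fold changes refitted, 1473 kept direction and side of the threshold, 65 lost the call, 22 gained it and 22 changed sign, none of them called in either fit. The calls lost were those of Tnfrsf11a in females, of Fos in males at the stricter threshold and of the proton pump subunits other than Atp6v0d2, and the cause was not tested. Prdm1, Irf8, Mmp9, Atp6v1f and Nfatc1 in males and Fos in females passed under some alternatives. Scaling by library totals moved the median of all genes between ages to -0.13 in females and -0.11 in males, so that Traf6 (-0.0986), Tcirg1 (-0.0590) and Ostm1 (-0.0612) turned sign in females while staying above that median, and Traf6 did so under DESeq2 (-0.0080). Within TMM-scaled CPM 1 of 40 group levels moved by more than 1 SD, that of Tnfrsf11a in females at 2 weeks.

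Between the sexes at 65 weeks the members called were 2 by DESeq2 (357 of all genes), 1 without the filter on low counts (105 of all genes) and 1 with all 12 libraries in 1 model (254 of all genes; Atp6v0d2 in both, adjusted p = 0.0212 and 0.0210), against 0 (6 of all genes), and 0 to 3 when 1 library was left out, the 3 without male replicate 3 (830 of all genes). Pathway genes called were 5 by DESeq2 (Csf1r, Trem2, Bcl6, Mmp9, Itgav), 1 with library totals (Trem2), 2 without the filter (Trem2, Mmp9), 3 in 1 model (with Bcl6) and 0 to 12 when 1 library was left out, again highest without male replicate 3, and at 2 weeks 5 by DESeq2 (Traf3, Il34, Plcg2, Adam8, Sema4d). The genes were named after their values were seen. The interaction called 1 member by DESeq2 (362 of all genes against 1) and 0 to 2 when 1 library was left out.

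Values that changed sign when 1 library was left out, with their range, were in females between ages Tcirg1 (-0.0128 to 0.171), Traf6 (-0.0873 to 0.211), Clcn7 (-0.0971 to 0.0150) and Atp6v0d2 (-0.29 to 0.18), between the sexes Calcr (-0.44 to 0.43) and Acp5 (-0.0075 to 0.129) at 2 weeks and Nfatc1 (-0.540 to 0.0044) and Tnfrsf11a (-0.0037 to 0.222) at 65 weeks, and in the interaction Calcr (-3.55 to 3.72), Nfatc1 (-0.445 to 0.0684) and Tnfrsf11a (-0.187 to 0.0055). The replicate numbers did not pair the libraries (correlations of deviations -0.51 to 0.21 between same-numbered libraries), and with the replicate block 7 members were called in each sex between ages and 0 in the other comparisons, the one member lost being Tnfrsf11a in females (adjusted p = 0.0821), beside Atp6v1d in both sexes, while Prdm1 and Atp6v1f in males were gained. Low counts per library at 65 weeks (0 to 4 of Calcr, 1 to 7 of Tnfrsf11b and 0 to 22 of Dcstamp) limit those folds, and 3 libraries a group limit every test.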

Other observations

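Among pathway genes that the comparison of the sexes did not call, Trem2 and Mmp9 had levels in males at 65 weeks above every female library of that age. This was not particular to them. Other genes of the lists lay so too, such as Atp6v0c, Atp6v0d1 and Csf1, and some lay the other way round, such as Itgav. Of all genes tested, 9.32% lay wholly higher in males and 6.16% wholly lower. Trem2, a lipid-sensing receptor of macrophages and osteoclast precursors, was at 59.5 to 74.7 CPM in males and 28.9 to 33.1 CPM in females, a log2 difference of 1.07 ± 0.14 (adjusted p = 0.0559 by edgeR, 0.0326 with scaling by library totals and 4.78e-08 by DESeq2). Mmp9, a gelatinase of osteoclasts and neutrophils, was at 990 to 1395 CPM in males and 539 to 734 CPM in females, a difference of 0.86 ± 0.19 (adjusted p = 0.173 by edgeR and 0.000579 by DESeq2). Neutrophil markers summed to 17100 to 25400 CPM in males and 11700 to 15400 CPM in females at that age, and their part was not tested. Both genes were singled out after their values were seen.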
